A study of Mus musculus with 2 samples.

Results

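The potassium channel genes of the newborn mouse midbrain are described here as a family, across 2 libraries of total RNA. They were taken as every protein-coding gene whose GENCODE symbol begins with Kcn, and were found by matching the deposited gene identifiers, without their version, to release M21 on the assembly GRCm38 (mm10). The rule gave 94 genes of 21474 protein-coding genes and 43346 Ensembl gene identifiers in the tables. It used names only, not measured values, and it takes in proteins that bind or regulate the channels as well as the subunits that form the pore.

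The tissue was whole midbrain of healthy mice of the strain B6NTac;B6NCrl/Lap at postnatal day 0, with males and females pooled. Replicate 1 was a pool of 15 animals and replicate 2 a pool of unstated size. No treatment, transgene or other group was included, and the labels name the same donor record for both, so that p-values between groups could not be had and the libraries serve as a measure of spread. RNA longer than 200 nucleotides was depleted of ribosomal RNA and read as stranded pairs of 101 bases, with synthetic spike-in RNAs added. The labels call the libraries independent isolates, but whether they shared litters is not stated.

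Potassium channels are membrane proteins that let potassium leave or enter the cell along its electrochemical gradient, and in neurons they set the resting potential, end the action potential and pace firing. A pore is built from subunits that each contribute a short loop, the selectivity filter, whose backbone carbonyl groups coordinate potassium ions. Voltage-gated subunits (Kcna, Kcnb, Kcnc, Kcnd, Kcnh and Kcnq) open on depolarisation. Calcium- and sodium-activated subunits (Kcnma, Kcnn, Kcnt and Kcnu) respond to ions inside the cell. Within that class Kcnu is placed as a relative of Kcnma, not for a response to calcium or sodium. Inward rectifiers (Kcnj) and two-pore channels (Kcnk) hold the resting potential. Modifier subunits (Kcnf, Kcng, Kcns and Kcnv) form no channel alone but join voltage-gated ones. Auxiliary proteins (Kcnab, Kcne, Kcnip, Kcnmb and Kcnrg) bind the pore subunits.

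The selectivity filter was then sought in the coding sequences. Kcn names follow channel families, so the search describes the genes and is no independent check of the name rule. The longest coding sequence of each gene in GENCODE M21 was translated and searched for a filter of 5 residues: threonine or serine, a hydrophobic residue or threonine, glycine, tyrosine, phenylalanine or leucine, and glycine. Of the 94 genes 77 held it, against 2.08% of 21152 protein-coding genes searched. All 30 voltage-gated subunits, all 15 inward rectifiers, all 10 modifier subunits and all 8 calcium- or sodium-activated subunits held 1 match. All 14 two-pore channels held 2, and none of the 17 auxiliary proteins held any. The filters of genes of each pore-forming class, modifier subunits aside, on which the results turn are given with the filter codons in capitals, the 15 bases before and after them in lower case, and 5′ to 3′ on the coding strand. The search required both glycines, so they are the same in every run. The other residues of the filter were free to vary within the search and differ among these runs. The bases therefore differ in part because the peptide does.
Kcnd2: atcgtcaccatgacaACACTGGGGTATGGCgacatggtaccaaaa
Kcna6: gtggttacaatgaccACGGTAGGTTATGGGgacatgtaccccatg
Kcnh2: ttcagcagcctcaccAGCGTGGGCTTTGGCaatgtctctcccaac
Kcnt1: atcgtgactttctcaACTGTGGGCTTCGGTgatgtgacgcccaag
Kcnma1: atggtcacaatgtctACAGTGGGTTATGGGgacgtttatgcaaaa
Kcnj3: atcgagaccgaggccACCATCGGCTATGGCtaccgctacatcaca
Kcnk9, first pore: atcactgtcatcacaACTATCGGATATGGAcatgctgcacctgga
Kcnk9, second pore: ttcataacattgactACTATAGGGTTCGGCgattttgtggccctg
Of the 91 matches in the family 89 were read as bases, and these made up 77 different runs. The window of Kcna6 lies at chr6:126738632-126738676 on the minus strand, that of Kcnh2 at chr5:24325540-24325584 (minus), that of Kcnt1 at chr2:25894352-25894396 (plus), that of Kcnma1 at chr14:23528398-23528442 (minus), that of Kcnj3 at chr2:55437612-55437656 (plus) and the second window of Kcnk9 at chr15:72512704-72512748 (minus), all in coding exons of GRCm38. The window of Kcnd2 and the first of Kcnk9 are each interrupted by an intron.

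The libraries held 46685706 and 72779229 estimated counts, of which 101672 and 160310 fell on the 94 genes. Levels are given in TPM, the deposited scale of transcript abundance, which divides counts by transcript length and brings every library to the same total and so allows genes to be compared within a library. Over detected protein-coding genes the log2 ratio of TPM, replicate 2 over replicate 1, had a median of -0.27. All 4 midbrain markers (En1, En2, Pax5 and Otx2) were detected, with a summed level of 48.9 TPM in replicate 1 and 44.3 in replicate 2. Every marker of neurons (979 and 855 TPM summed), astrocytes and radial glia (306 and 218), the oligodendrocyte lineage (53.8 and 62.0), endothelium (52.3 and 35.6) and meningeal fibroblasts (22.6 and 18.9) was detected too. The choroid plexus list summed to 16.9 TPM in replicate 1 and 168 in replicate 2, mostly through Ttr, while Kl of that list stood at 0.46 and 0.43 TPM and Clic6 at 0.45 and 0.63. The cerebellar and hindbrain list summed to 0.980 and 8.76 TPM.

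A gene was called detected where both libraries gave it 1 TPM or more. Of the 94 genes 56 were detected, or 59.6%, against a background of 53.8% of all protein-coding genes. Another 33 stayed below 1 TPM in both, and 5 (Kcnj2, Kcnj13, Kcnab3, Kcng2 and Kcna5) reached it in replicate 1 only. None of these 5 differed by 2-fold on the scaled counts described further on. Their log2 ratios of replicate 2 over replicate 1 ran from -0.87 (Kcnj2) to -0.04 (Kcna5). Over all 94 genes the median was 2.00 TPM in replicate 1 and 1.61 in replicate 2, close to 1.91 and 1.61 over all protein-coding genes. The 56 genes that passed the threshold were lower than the protein-coding genes that passed it, as a description: their median was 4.39 TPM in replicate 1 and 3.79 in replicate 2, against 7.96 and 6.57. Only 9 reached 10 TPM in both libraries. The 10 highest by mean TPM held 45.5% of the family's summed TPM in replicate 1 and 45.3% in replicate 2. With each library ranked alone, the same 8 genes were among the 10 highest of both. Across the 94 genes log2(TPM + 1) correlated between the libraries with a Pearson r of 0.981 and a Spearman rho of 0.975. These correlations are a description across genes that share the libraries. In whole tissue, fewer cells of a type and less RNA per cell cannot be told apart, so no level here is a level per cell.

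Voltage-gated pore subunits carried 48.4% ± 1.25 (SD, n = 2) of the family's TPM, with 22 of 30 detected. Auxiliary proteins followed at 20% ± 1.71 with 10 of 17 detected, then two-pore channels at 10.5% ± 0.195 with 6 of 14. Calcium- and sodium-activated subunits held 9.99% ± 0.347 with 7 of 8 detected, and inward rectifiers 7.37% ± 0.0447 with 7 of 15. Modifier subunits held least, at 3.67% ± 0.355 with 4 of 10 detected. The order of the classes was the same in both libraries, but the two-pore and the calcium- or sodium-activated classes differed by less than 1 percentage point in either. Their summed levels were 39.9 and 36.9 TPM for two-pore channels and 39.2 and 33.7 for calcium- and sodium-activated subunits. The latter sums leave out the transcript Kcnma1-205, listed under another gene row at 7.21 and 5.20 TPM. The order of these 2 classes therefore depends on where that transcript is counted.

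**Figure D1:**
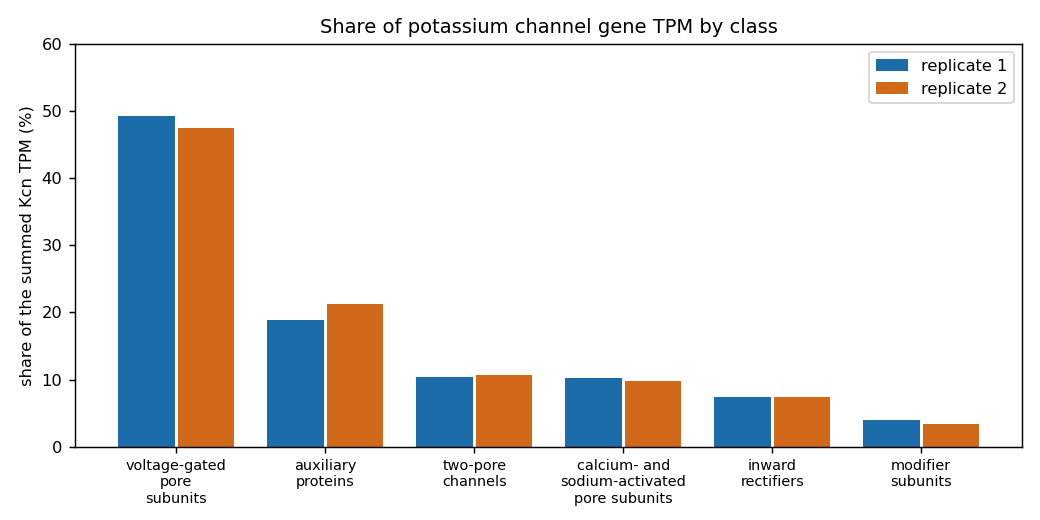
Share of the summed TPM of the 94 potassium channel genes (vertical axis, %) held by each class, in replicate 1 (blue) and replicate 2 (orange). Voltage-gated pore subunits held 49.3% in replicate 1 and 47.5% in replicate 2, and modifier subunits 3.92% and 3.42%.

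Among the voltage-gated subunits, Kcnq3 encodes part of the M-current, the slow potassium current that restrains repetitive firing and that muscarinic receptors close. Kcnq3 stood at 7.89 TPM in replicate 1 and 5.59 in replicate 2 (6.74 ± 1.63, mean ± SD, n = 2), from 5694 and 7968 counts. Kcnq5, a further M-current subunit, was lower at 1.96 and 2.08 TPM. Kcnq1, the subunit of heart and epithelia, was lower still at 0.3 and 0.08 TPM. The order of these genes was the same in both libraries.

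Kcnd2 and Kcnd3, the subunits of the rapidly inactivating A-type current in dendrites and cell bodies, were both among the 6 highest genes of the family. Kcnd2 stood at 20.4 TPM in replicate 1 and 17.5 in replicate 2 (18.9 ± 2.09), all on 1 annotated transcript, and Kcnd3 at 14.4 and 14.7 (14.6 ± 0.255). They differed by less than 2-fold in each library, with log2 ratios of 0.50 and 0.24. The third member, Kcnd1, was below 1 TPM in both libraries at 0.67 and 0.95, and Kcnd2 exceeded it by log2 ratios of 4.74 and 4.06.

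The Kcna family, homologues of the Drosophila Shaker channel, was led by Kcna6 and Kcna3. Kcna6 stood at 20.4 and 16.8 TPM (18.6 ± 2.54) and Kcna3, which is also known from T cells, at 14.0 and 13.3 (13.6 ± 0.495). On protein-coding transcripts alone their order turned, with Kcna6 at 10.4 and 6.61 TPM and Kcna3 unchanged. Kcna4, the inactivating member of the family, reached 4.87 and 3.58 TPM and Kcna2, an axonal subunit, 4.21 and 3.68, with ranges that overlapped. Kcna1, the axonal partner of Kcna2 in the mature brain, was only at 0.54 and 0.73 TPM, below Kcna2 by log2 ratios of 2.75 and 2.19. Kcna5 stood at 1.12 and 0.9 TPM, and Kcna10 and Kcna7 had 0 and at most 2 counts.
Kcna6, Kcna1 and Kcna5 are neighbours on the minus strand of chromosome 6, and Kcna3, Kcna2 and Kcna10 neighbours on chromosome 3. In the first cluster the levels were 18.6, 0.635 and 1.01 TPM on average, with 61.9 kb between Kcna1 and Kcna6. In the second they were 13.6, 3.95 and 0 TPM, with 63.1 kb between Kcna3 and Kcna2. Each cluster therefore held 1 of the 10 highest genes of the family beside a gene below 1 TPM.

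The Kcnc family, whose fast channels allow neurons to fire at high rates, includes Kcnc4 at 9.37 and 8.70 TPM and Kcnc1 at 9.47 and 8.51. Which of them was higher differed between the libraries. Kcnc2 was at 3.34 and 2.43 TPM, more than 2-fold below Kcnc1 in both libraries (log2 ratios of 1.48 and 1.77). The Kcnb genes encode the sustained delayed rectifier that clusters on cell bodies. Kcnb2 stood at 4.64 and 2.79 TPM (3.71 ± 1.31).

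The Kcnh family holds the ether-a-go-go, erg and elk channels. Kcnh2, the erg channel also known for repolarising the heart, led at 9.99 and 11.04 TPM (10.5 ± 0.742). The related erg gene Kcnh7 stood at 3.79 and 1.93 TPM, below Kcnh2 by log2 ratios of 1.38 and 2.46. Kcnh4 stood at 2.92 and 3.59 TPM, above Kcnh7 in replicate 2 and by mean. Of the remaining members, Kcnh5 stood at 2.24 and 1.64, Kcnh8 at 1.10 and 1.44 and Kcnh1 at 1.32 and 1.09. Kcnh6 at 0.65 and 0.57 and Kcnh3 at 0.35 and 0.68 were not detected, and Kcnh3 differed between the libraries as described further on.

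**Figure D2:**
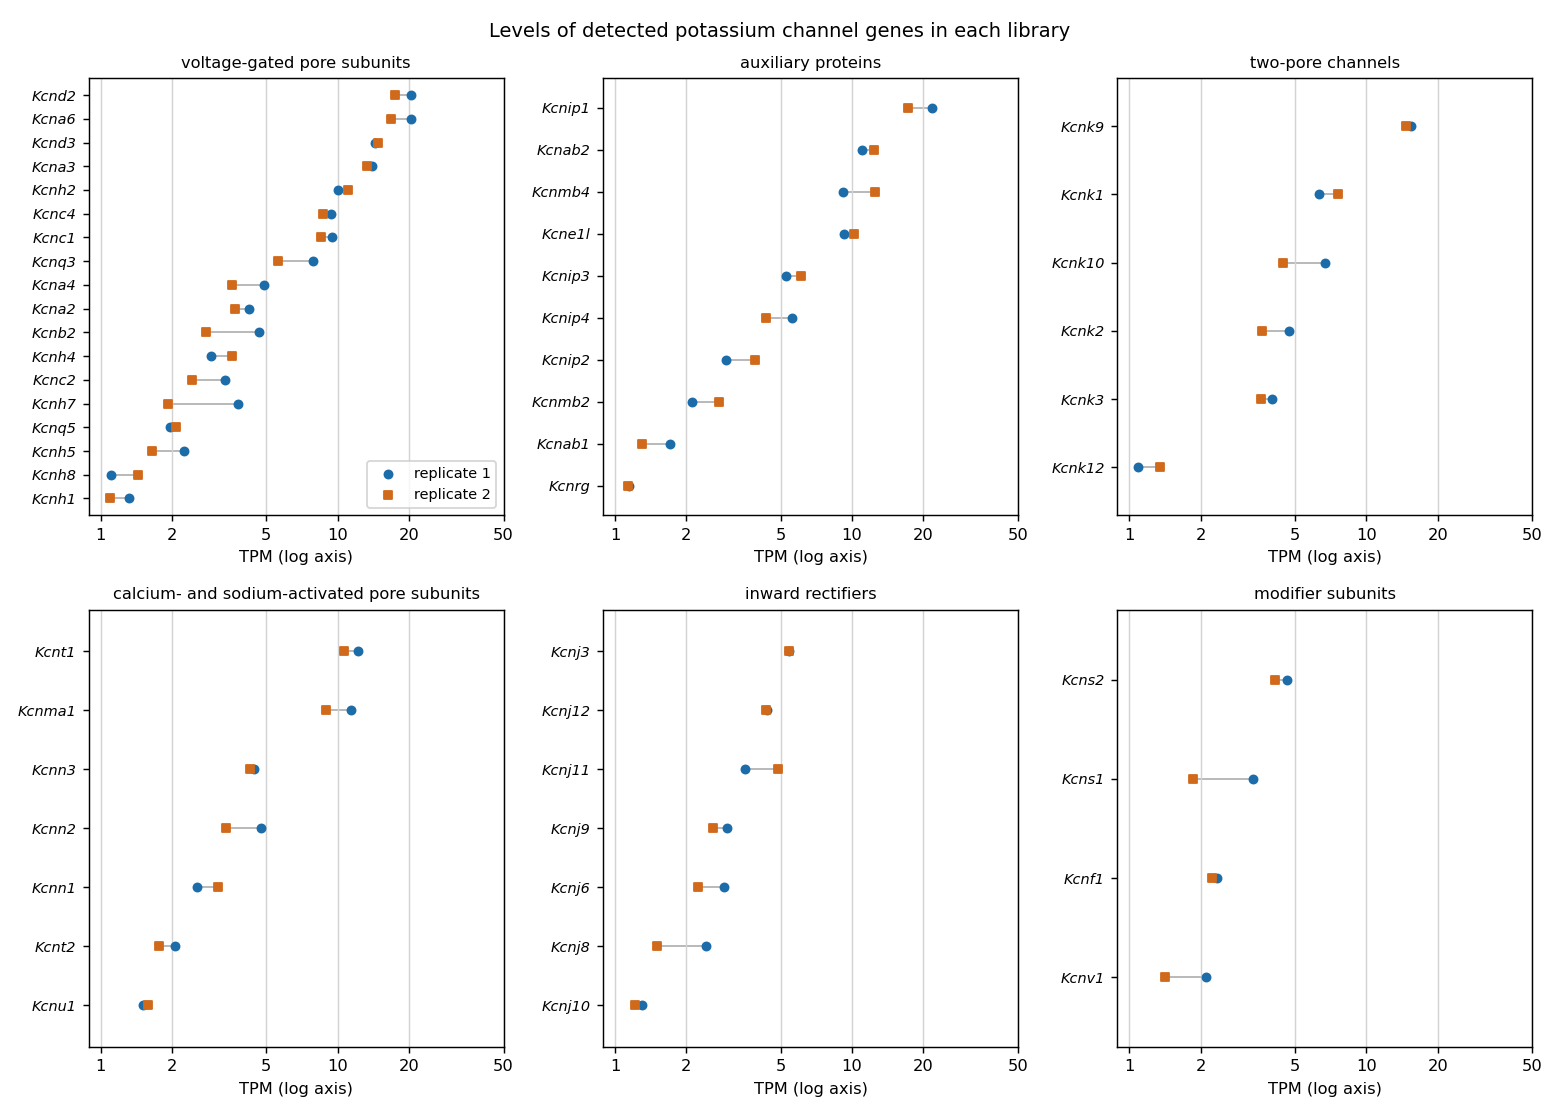
TPM (horizontal log axes) of 52 detected potassium channel genes in replicate 1 (blue circles) and replicate 2 (orange squares), 1 panel per class, genes ordered by mean. Kcnd2 stood at 20.4 and 17.5 TPM, and genes of every class but the modifier subunits and the inward rectifiers reached 10 TPM in a library.

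The auxiliary proteins were led by Kcnip1, at 21.7 TPM in replicate 1 and 17.2 in replicate 2 (19.5 ± 3.20). The Kcnip genes encode calcium-binding proteins that attach to Kcnd subunits and raise their surface expression, and all 4 were detected. Kcnip3 followed at 5.25 and 6.08 TPM, Kcnip4 at 5.57 and 4.35 and Kcnip2 at 2.93 and 3.89. Kcnip1 exceeded Kcnip4 by log2 ratios of 1.94 and 1.96, while Kcnip3 and Kcnip2 stayed within 2-fold. The summed Kcnip share of the family's TPM was 9.19% ± 0.0914, next to 9.42% ± 0.242 for the Kcnd subunits they bind. Both transmembrane partners of the Kcnd subunits outside the family were detected too: Dpp6 at 35.1 and 30.7 TPM and Dpp10 at 19.5 and 14.1.

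Kcnab2, a cytoplasmic beta subunit of Kcna channels related to aldo-keto reductases, reached 11.01 and 12.36 TPM and exceeded Kcnab1 at 1.71 and 1.30 by log2 ratios of 2.62 and 3.15. Kcnab3 stood at 1.61 and 0.58. Kcnmb4, the neuronal beta subunit of the large-conductance calcium-activated channel, stood at 9.20 and 12.5 TPM, and Kcnmb2, which confers inactivation on that channel, at 2.12 and 2.75. The smooth-muscle subunit Kcnmb1 had 1 and 11 counts, and it overlaps Kcnip1 on the opposite strand. Kcnmb3 had 6 and 0 counts. Of the 5 single-span Kcne proteins only Kcne1l was detected, at 9.25 and 10.2 TPM (9.73 ± 0.686). Kcne2 and Kcne4 stayed at or below 0.36 TPM and Kcne1 at or below 0.31, while Kcne3 had 0 counts, where 3 counts would have been 0.0461 TPM in replicate 1 and 0.0249 in replicate 2. Kcnrg, a soluble protein that hinders assembly of Kcna subunits, stood at 1.15 and 1.14 TPM.

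Among the calcium- and sodium-activated pores, the sodium-activated Kcnt1 stood at 12.2 and 10.6 TPM (11.4 ± 1.15) and the large-conductance Kcnma1 at 11.4 and 8.92 (10.2 ± 1.74). On protein-coding transcripts alone Kcnt1 was lower, at 5.49 and 3.69 TPM, against 10.3 and 8.91 for Kcnma1. The value of Kcnma1 leaves out the transcript Kcnma1-205, which the deposited tables list under another gene row at 7.21 and 5.20 TPM (593 and 791 counts). Kcnt2, the other sodium-activated subunit, stood at 2.05 and 1.76 TPM, below Kcnt1 by a log2 ratio of 2.52 in both libraries, or 1.39 and 1.13 on protein-coding transcripts alone. The small-conductance channels, which produce the afterhyperpolarisation, were close to each other, with Kcnn3 at 4.42 and 4.28 TPM, Kcnn2 at 4.74 and 3.39 and Kcnn1 at 2.55 and 3.13. Kcnn2 was above Kcnn3 in replicate 1 and below it in replicate 2. The log2 ratio of Kcnn1 over Kcnn2 averaged -0.49, and 0.58 on protein-coding transcripts alone, so their order depends on which transcripts are counted. Kcnn4, the intermediate-conductance channel of blood cells and epithelia, was at 0.4 and 0.04 TPM. Kcnu1, known from sperm, met the detection threshold at 1.51 and 1.58 TPM from 108 and 196 counts. These lay on 2 short transcripts, Kcnu1-202 of 1446 bases (68.6% and 55.2%) and Kcnu1-203 of 697 bases (31.4% and 43.2%), so that the level does not show the whole coding sequence. Of the 4 gamma subunits of the large-conductance channel, which are outside the family, Lrrc55 was detected at 3.12 and 3.05 TPM, Lrrc26 had 0 counts and Lrrc38 and Lrrc52 stayed below 0.5 TPM.

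Among the two-pore channels, which give background leak currents, the acid-sensitive Kcnk9 stood highest at 15.4 and 14.8 TPM (15.1 ± 0.460). The related Kcnk3 stood at 4.01 and 3.60 TPM, below Kcnk9 by log2 ratios of -1.92 and -2.01. Kcnk1, a weakly conducting member, reached 6.31 and 7.63 TPM. The mechanically and lipid-gated Kcnk10 stood at 6.70 and 4.46 TPM and Kcnk2 at 4.72 and 3.63, within 2-fold of each other. Kcnk12, a member that is silent in most expression systems, was at 1.09 and 1.35 TPM. The other 8 were below 1 TPM in both libraries, among them Kcnk13, a channel of microglia, at 0.4 and 0.29 TPM, while the 4 microglial markers summed to 21.2 and 19.0 TPM. Kcnk7 and Kcnk18 had 0 counts.

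No inward rectifier reached 6 TPM. Kcnj3, a subunit of the channels that G protein beta and gamma subunits open, led at 5.41 and 5.44 TPM (5.43 ± 0.0212). Its partners stood at 2.87 and 2.24 TPM for Kcnj6, known in the midbrain for dopamine neurons, and at 2.96 and 2.59 for Kcnj9. Kcnj6 and Kcnj9 differed by log2 ratios of only -0.04 and -0.20, or 1.15 and 0.47 on protein-coding transcripts alone, and the fourth member, Kcnj5, stood at 0.55 and 0.27 TPM. Gabbr1 and Gabbr2, the GABA-B receptor subunits that act on these channels, were detected at 135 and 117 TPM and at 25.0 and 22.6.
Of the pores of ATP-sensitive channels, which open when ATP falls, Kcnj11 stood at 3.52 and 4.87 TPM and Kcnj8 at 2.41 and 1.5. Their order was the same in both libraries, but the log2 ratio was 0.53 in replicate 1 and 1.64 in replicate 2. The sulfonylurea receptors they pair with were at 2.07 and 2.47 TPM for Abcc8 and 2.16 and 1.67 for Abcc9. Kcnj8 is known from mural cells of vessels, whose 4 markers summed to 47 and 40.3 TPM. Kcnj12, a strong rectifier, stood at 4.36 and 4.32 TPM, above Kcnj2 at 1.79 and 0.8 and Kcnj4 at 0.31 and 0.4. The glial Kcnj10 was just above the threshold at 1.30 and 1.21 TPM and its partner Kcnj16 just below it at 0.77 and 0.92. Kcnj13, a channel of choroid plexus and retinal pigment epithelium, was at 1.71 and 0.83 TPM, higher in the library with less Ttr (14.4 TPM in replicate 1 and 163 in replicate 2), and the part of choroid plexus tissue in its level was not tested.

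Modifier subunits were the sparsest class. Kcns2 stood at 4.63 and 4.10 TPM, Kcns1 at 3.32 and 1.85, Kcnf1 at 2.34 and 2.23 and Kcnv1 at 2.10 and 1.42. None of the 4 Kcng genes was detected, with Kcng2 nearest at 1.18 and 0.94 TPM. The genes just above the threshold, by their lower library, were Kcnk12 and Kcnh1 at 1.09, Kcnh8 at 1.10, Kcnrg at 1.14 and Kcnj10 at 1.21 TPM. Those just below were Kcng2 at 0.94, Kcna5 at 0.9, Kcnj13 at 0.83, Kcnj2 at 0.8 and Kcnj16 at 0.77. In all, 5 genes had 0 counts in both libraries: Kcna10, Kcne3, Kcnj1, Kcnk7 and Kcnk18.

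Related genes were compared within each library over 31 pairs, and a pair was called where 1 gene was at least 2-fold above the other in the same direction in both. The call was met by 16 pairs and missed by 15. The same share was not worked out over pairs of other genes, so the count describes these pairs only. Wide separations were seen for Kcna6 over Kcna1 (log2 ratio 4.68 ± 0.46, mean ± SD, n = 2), Kcnd2 over Kcnd1 (4.40 ± 0.48) and Kcna3 over Kcna5 (3.63 ± 0.15). With 1 TPM added in place of 0.1 the mean ratios were 3.58, 3.46 and 2.86, and on protein-coding transcripts alone that of Kcna6 over Kcna1 was 3.53, with all 3 pairs still called. Several pairs kept almost the same ratio: Kcnip1 over Kcnip4 at 1.95 ± 0.01, Kcnk3 under Kcnk9 at -1.96 ± 0.06 and Kcnmb4 over Kcnmb2 at 2.10 ± 0.05. Of the pairs that missed the call, Kcnj4 with Kcnj2 varied most (-1.53 ± 0.96), followed by Kcnj11 with Kcnj8 (1.08 ± 0.78). Kcnn2 with Kcnn3 (-0.11 ± 0.30) was the pair whose order changed between the libraries.

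**Figure D3:**
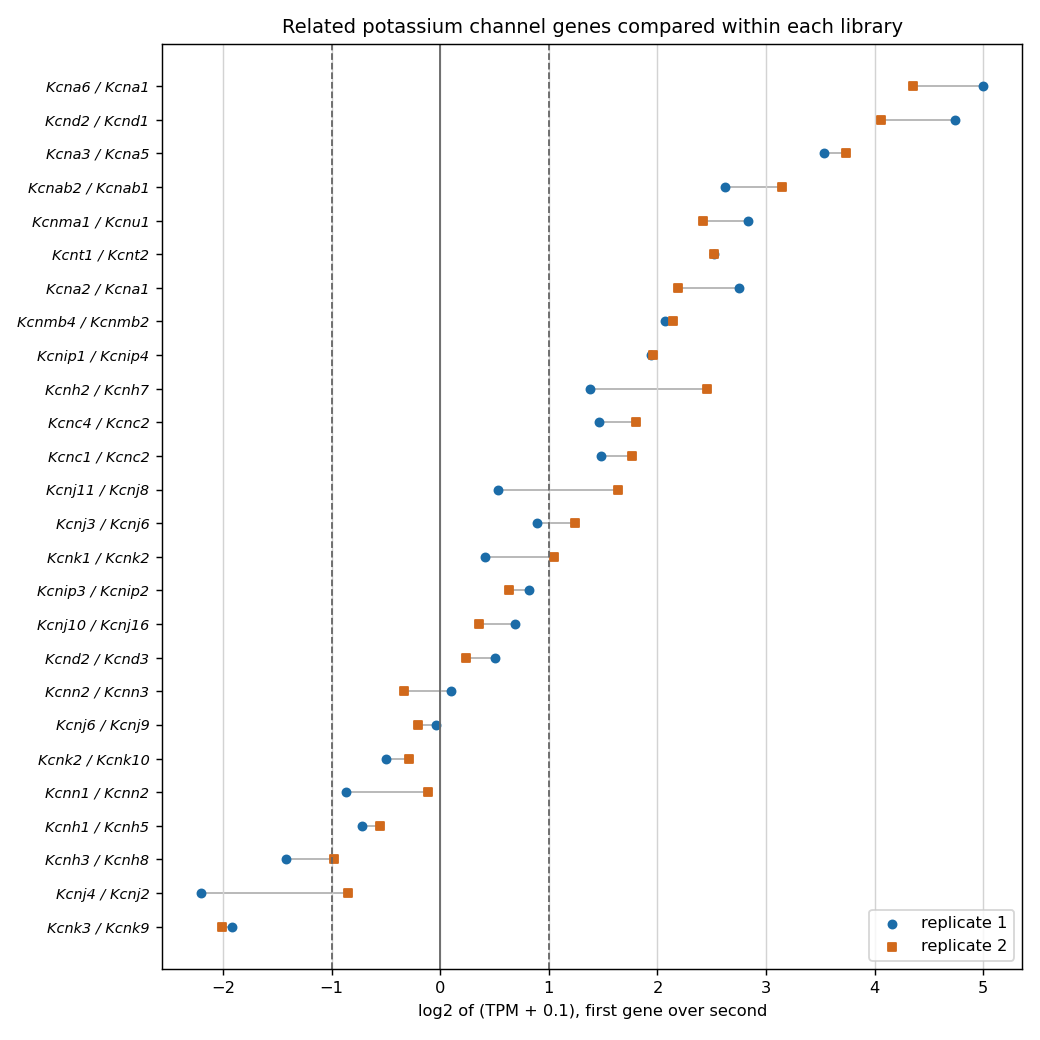
Log2 ratio of TPM + 0.1 of the first gene over the second (horizontal axis) for 26 of the pairs of related potassium channel genes, in replicate 1 (blue circles) and replicate 2 (orange squares). Dashed lines mark 2-fold: 13 of these pairs have both points beyond the same line, from Kcnk3 under Kcnk9 at -1.96 on average to Kcna6 over Kcna1 at 4.68 (3.53 on protein-coding transcripts alone).

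Proteins that act with the channels were listed as well. Of these 40 genes 36 were detected, where 53.8% of all protein-coding genes were. The 40 were picked with earlier results of these data known. The axon initial segment anchors, which hold Kcnq3 at the site where spikes start, stood at 68.8 and 46.2 TPM for Ank3, 87.7 and 66.8 for Ank2 and 7.72 and 4.97 for Sptbn4. Cntnap2, which gathers Kcna channels along myelinated axons, stood at 31.4 and 25.1 TPM. Its partner Cntn2 was at 11.8 and 12.7. All 6 axonal partners of Kcna channels were detected, as were the 3 calmodulin genes, whose product gates the small-conductance and Kcnq channels, and the 4 G protein beta and gamma genes. The 3 Kcnb partners were detected, with Amigo1 at 7.65 and 6.28 TPM. Of the transporters that set the potassium and chloride gradients, Slc12a5 stood at 85.3 and 88.1 TPM and Slc12a2 at 6.13 and 3.77, and all 6 sodium-potassium pump subunits were detected. Slc12a7 at 1.19 and 0.9 TPM was not. Among the partner genes whose counts summed to 20 or more, only Lrrc38 differed by 2-fold between the libraries, with 75 and 18 counts. Of the protein-coding genes that met this count 9.30% did. Lrrc26 and Lrrc52 had too few counts to compare.

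The libraries were compared on estimated counts scaled by the trimmed mean of M values (TMM), for genes whose counts summed to 20 or more. With 1 library on each side there is no test. Of 82 potassium channel genes that met the count, 7 differed by at least 2-fold, or 8.54%, against a background of 9.30% of 15253 protein-coding genes, so the family stood near the background. Replicate 2 was higher for 4 genes, where 5.70% of the background was, and replicate 1 for 3, where 3.61% was. Kcng1, a modifier of Kcnb channels, had 23 counts in replicate 1 and 162 in replicate 2 (log2 ratio 2.18). The modifier Kcnv2 had 11 and 68 counts (1.97), the modifier Kcng4 35 and 149 (1.47) and the elk channel Kcnh3 88 and 319 (1.24). In the other direction Kcnn4 had 54 and 11 counts (-2.85), the modifier Kcns3 68 and 29 (-1.82) and Kcnq1 63 and 32 (-1.57). All 7 were below 1 TPM in both libraries. The lists of choroid plexus and of cerebellum and hindbrain also differed between the libraries, as given above, as did that of skeletal muscle, at 2.83 TPM in replicate 1 and 5.94 in replicate 2. Hoxd3, of the hindbrain list, had 0 and 174 counts. The part of neighbouring tissue in these 7 differences was not tested.

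None of the 56 detected genes differed by 2-fold. Their log2 ratios of replicate 2 over replicate 1 had a median of 0.16 and an SD of 0.29, against 0.01 and 0.33 for all detected protein-coding genes. The extremes were Kcns1 at -0.56 (620 and 640 counts) and Kcnj11 at 0.75 (241 and 617 counts). The ratio was lower for genes that span more of the genome, with a Spearman rho of -0.37 over the 56 genes and -0.21 over 11551 detected protein-coding genes. Both are descriptions across genes of the same 2 libraries.

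**Figure D4:**
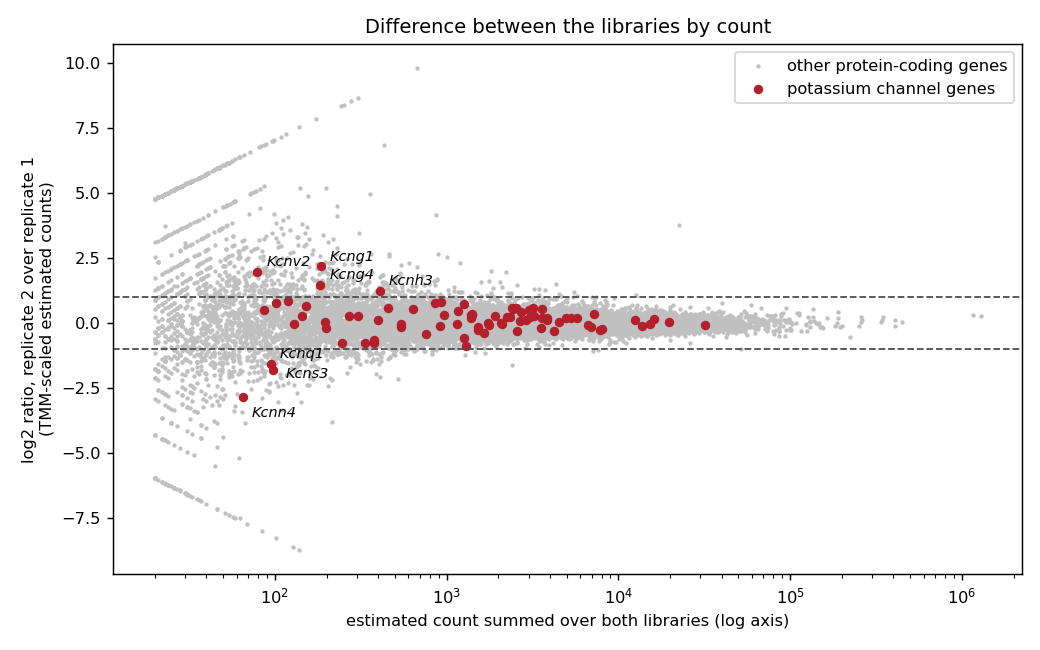
Log2 ratio of replicate 2 over replicate 1 on TMM-scaled estimated counts (vertical axis) against the count summed over both libraries (horizontal log axis), for the 15253 protein-coding genes that met the count minimum of 20. The 82 potassium channel genes are red, and the 7 beyond the dashed 2-fold lines are named.

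Transcripts were then compared through the deposited percentage of each gene's TPM that each transcript carries. The tables held 300 transcripts of the 94 genes, of which 3 had no match in the current annotation and are counted here with those not annotated as protein-coding. Of 36 detected genes with more than 1 transcript, 27 had the same leading transcript in both libraries, or 75.0%, against a background of 82.8% of 8547 protein-coding genes. In 52 of the 56 detected genes a protein-coding transcript led in both libraries. The exceptions were Kcnt1, led by the retained-intron transcript Kcnt1-202 in both (22.0% and 17.1%), Kcna6, Kcnj9 and Kcnn2. In Kcna6 the processed transcript Kcna6-203 led in replicate 1 (27.9%) and Kcna6-201, annotated as a target of nonsense-mediated decay, in replicate 2 (42.7%). In Kcnj9 the retained-intron transcript Kcnj9-203 led in replicate 1 (58.2%) and the protein-coding Kcnj9-201 in replicate 2 (51.3%). In Kcnn2 the processed transcript Kcnn2-202 led in replicate 1 at 23.9% and was at 0 in replicate 2, where the protein-coding Kcnn2-205 led with 42.0%. The other genes whose leading transcript changed were Kcnab2, Kcnh1, Kcnip4, Kcnj3, Kcnma1 and Kcnt2, each between protein-coding transcripts.

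Transcripts not annotated as protein-coding carried 12.9% of the family's TPM in replicate 1 and 13.7% in replicate 2, next to 10.9% and 10.5% over all detected protein-coding genes. They carried at least 20% of a gene's TPM in both libraries in 10 of the 56 detected genes, against a background of 17.6% of 11551. The share was 55% and 65.1% for Kcnt1, 49.0% and 60.7% for Kcna6, 58.9% and 47.5% for Kcnn2 and 58.1% and 38.6% for Kcnj9. It was 33.3% and 41.8% for Kcnh2, and Kcnab1, Kcnn3 and Kcnh7 were also among the 10. On protein-coding transcripts alone, Kcnab1 and Kcnh8 fell below 1 TPM in replicate 2, at 0.9 and 0.95.

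**Figure D5:**
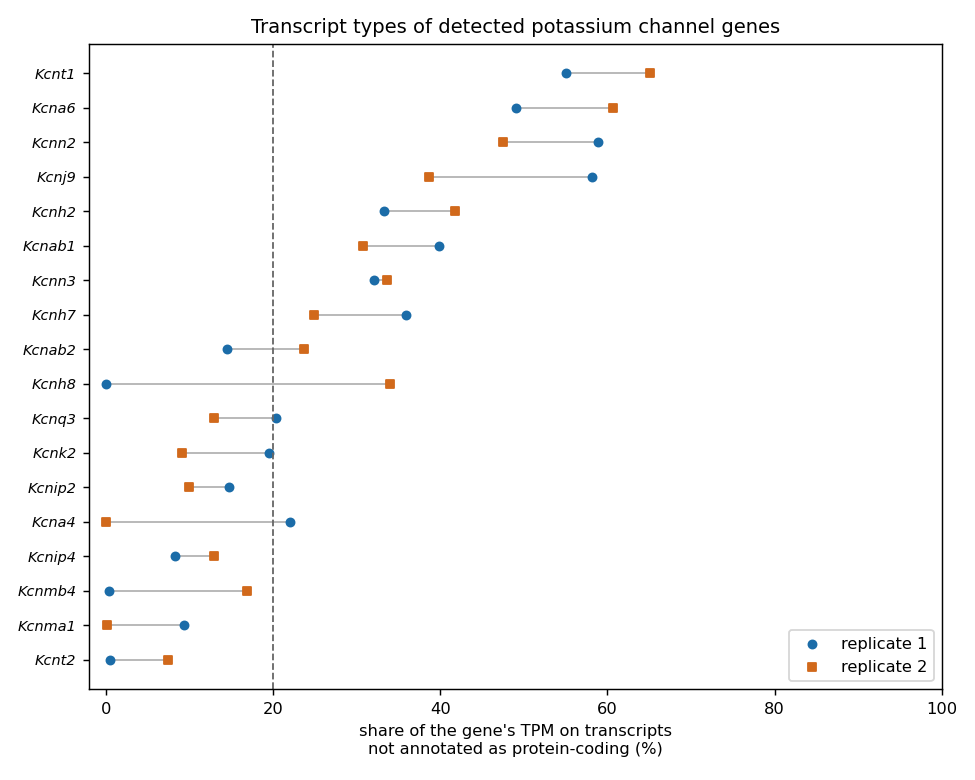
Percentage of a gene's TPM on transcripts not annotated as protein-coding (horizontal axis), in replicate 1 (blue circles) and replicate 2 (orange squares), for 18 detected potassium channel genes with at least 5% in a library. The dashed line marks 20%, and Kcnt1 (55% and 65.1%) and Kcna6 (49.0% and 60.7%) stand at the top.

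The estimated length of a gene, which follows from its mix of transcripts, differed by over 20% between the libraries in 6 detected potassium channel genes, or 10.7%, next to 10.2% of detected protein-coding genes. The 6 were Kcna4, Kcnd3, Kcnh7, Kcnh8, Kcnip2 and Kcnt2. In Kcnh7 the estimated length was 6835 bases in replicate 1 and 8775 in replicate 2, and its TPM of 3.79 and 1.93 stood beside a log2 ratio of scaled counts of only -0.32. In Kcnd3 the length was 5926 and 4645 bases, and the TPM of 14.4 and 14.7 stood beside a log2 ratio of -0.06. TPM and scaled counts thus gave different sizes for the difference between the libraries in Kcnh7.

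Short coding exons that change the protein without shifting the frame were sought in the 18 genes with at least 5 TPM on protein-coding transcripts in both libraries. The search took exons of at most 90 bases, a multiple of 3, that some protein-coding transcripts keep and others skip, and where these transcripts held at least 85% of the coding TPM. The exons of Kcnab2, Kcnd3 and Kcnip1 are shown here 5′ to 3′ on the coding strand because they are bases by which the proteins of these genes differ.
Kcnab2, 42 bases, chr4:152434782-152434823 (minus): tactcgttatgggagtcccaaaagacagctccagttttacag
Kcnd3, 57 bases, chr3:105666962-105667018 (plus): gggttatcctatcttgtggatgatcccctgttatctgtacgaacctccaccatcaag
Kcnip1, 33 bases, chr11:33651540-33651572 (minus): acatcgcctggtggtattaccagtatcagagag
The Kcnip1 exon was the steadiest of these 3, kept in 63.2% of coding TPM in replicate 1 and 68.0% in replicate 2. The Kcnab2 exon was kept in 47.6% and 73.7%, and was therefore the minority form in replicate 1 and the majority form in replicate 2. The 57-base exon of Kcnd3, which encodes 19 residues, was kept in 23.4% and 49.2% of coding TPM, with 76.6% and 50.8% skipping it. The share was higher in replicate 2 for all 3 exons. Reads are divided among whole transcripts that differ elsewhere too: Kcnd3-201, which keeps the exon, is annotated with 2102 bases and Kcnd3-202, which skips it, with 7169. No reads across the junctions were used here, so the shares are estimates of the quantification and not direct counts of the exon.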

How the data were processed

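Gene and transcript tables were used as deposited for 2 libraries of 1 group. Per the deposited notes, the authors quantified them on mm10 with GENCODE M4. Neither the aligner nor the program that counted, nor its use of strand, is named in what was read here (not given in the sources used here). Deposited expected counts (estimated counts) divide reads that fit several features, and were rounded to whole numbers only for scaling. The TPM and FPKM values are those deposited, and so is the percent by which a transcript contributes to its gene. The lower and upper bounds of TPM in the same deposited tables were not used.

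Symbols, gene types, coding exons and sequences came from GENCODE M21 on GRCm38. No column belonged to another sample (0 columns). Scaling used edgeR 4.0.16 (TMM), with DESeq2 1.42.0 size factors as the alternative, and a prior count of 0.5 in each ratio. Pairs used log2 of TPM + 0.1. A difference had to reach 2-fold. With 1 group of 2 libraries no p-value was computed. The counts of genes detected, past 2-fold and with the same leading transcript are set beside those over protein-coding genes. Some other counts, such as the called pairs and the genes at 10 TPM or more, have no such background. The calculation of the ratio was tried on simulated counts that held counting error only. That trial says nothing on whether the 2-fold differences between these libraries would recur.

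The total of estimated counts was 46685706 for replicate 1 and 72779229 for replicate 2. Where no count was seen, sampling alone allows 3 per library, a floor that covers counting error only.

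The potassium channel genes, the pairs, the partner and marker lists and the exon search were chosen with earlier results of these data known. The genes named are the 4 highest of each letter subfamily, both genes of each pair, genes at 0 counts, past 2-fold or next to the detection threshold, those whose leading transcript differed or was not protein-coding, and partners. Kcnab3, Kcnk12, Kcnk13, Kcnmb1, Kcnmb3, Kcne1, Kcne2 and other genes low in their subfamily, and the genes of the transcript and exon results, were named after their values were seen where the rule did not reach them. A few genes of the family are not reported here by name, and they stay in the counts and shares of the family.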

Additional observations from a re-analysis of the deposited data

Results flagged for a closer look

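RNAs that are not protein-coding but carry a Kcn name on the opposite strand lie outside the 94 genes, and 3 of the 5 rows in the tables held counts above the 3 that a count of 0 allows in each library. Kcnq1ot1, the long imprinted RNA that starts within Kcnq1, was covered by 6701 counts (replicate 1) and 9370 (replicate 2), and Kcnq1 itself by 63 and 32. Counts do not allow for length, which is 84395 bases for Kcnq1ot1 and 3029 for Kcnq1. In TPM Kcnq1ot1 stood at 1.04 and 0.79, and Kcnq1 at 0.3 and 0.08. Kcnd3os held 51 and 61 counts, next to 6227 and 9127 for Kcnd3. Kcnmb4os2 held 39 and 57 counts, next to 768 and 1681 for Kcnmb4. Kcnab3os and Kcnmb4os1 had 0 counts. The library kit keeps strand, but whether the counting used it is not stated, so overlapping reads of each gene and its antisense partner may have been divided in a way that was not tested.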

How the results depend on the processing

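The 56 detected genes became 66 at a threshold of 0.5 TPM, 41 at 2 TPM, 65 by FPKM and 54 on protein-coding transcripts alone, and 56 to 61 with each library left out. The 16 called pairs ranged from 16 to 20. The 7 genes past 2-fold stayed at 7 under DESeq2 size factors and under total counts, rose to 13 with a summed count of at least 1, and fell to 3 with at least 100; 12 of the 94 genes were under the count minimum of 20. The 47 genes with the same leading transcript, single-transcript genes included, became 16 of the 20 genes with at least 5 TPM, because fewer genes were compared, and 49 on protein-coding transcripts alone. On protein-coding transcripts alone the class shares moved by more than the SD between libraries to 8.04% for calcium- and sodium-activated subunits, 8.08% for inward rectifiers, 4.23% for modifier subunits, 12% for two-pore channels and 46.4% for voltage-gated subunits, which put the calcium- and sodium-activated subunits below the inward rectifiers. Of the 56 levels 13 fell by more than 1 SD on protein-coding transcripts. No paired analysis was possible because there is only 1 group. With 2 libraries an SD is itself imprecise.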
